A study of Homo sapiens with 12 samples.

Results

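The 8 annexin genes described here are ANXA1, ANXA2, ANXA3, ANXA4, ANXA5, ANXA6, ANXA7 and ANXA11, out of 16578 genes named on the arrays. All probes carrying one of these symbols were taken, 11 in all. The family was selected on a measured value, the fall of ANXA1 when the transcription factor RPF-1 was induced, so that contrast is given for the annexins as a description with no test. RNA of HEK293, a line derived from human embryonic kidney, was measured on 12 Illumina bead arrays. There were 4 groups with 3 arrays each. In RPF1 Tet- the stable transfectants carried RPF-1 cDNA in pTRE2puro and grew without tetracycline, which switches the cDNA on. RPF1 Tet+ was the same line in medium with tetracycline, where the cDNA is off. Mock Tet- and Mock Tet+ were the Mock transfectant without and with tetracycline. All cultures ran for 48 h. The labels do not say whether a transfectant line was a single clone, nor whether the 3 arrays of a group came from separate cultures, so the spread between arrays may be technical. The level of RPF-1 itself was not analysed here.

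Annexins are calcium-dependent proteins that bind acidic phospholipids and so attach to the inner face of membranes, where they take part in vesicle traffic, membrane repair and the ordering of lipid domains. ANXA1 is known as a glucocorticoid-induced inhibitor of phospholipase A2 activity, and after secretion it acts on formyl peptide receptors. ANXA2 pairs with S100A10 at the plasma membrane, ANXA5 binds exposed phosphatidylserine, and ANXA7 and ANXA11 are known binding partners of sorcin and of PDCD6. Messenger RNA is what was measured, not protein.

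Detection and depth were similar across the arrays but highest on RPF1 Tet- arrays 2 and 3. These detected 14493 and 14318 probes, with medians of unprocessed intensity of 357.2 and 336.5. Between 13568 and 14493 of 22184 probes had a detection p under 0.05, and array medians of unprocessed intensity lay between 277 and 357. Arrays of a group correlated at 0.989 to 0.996 over the tested probes. The arrays sat on 3 chips: 2 of the Mock Tet+ arrays on the first, RPF1 Tet- arrays 2 and 3 alone on the third, and the other 8 arrays on the second. Of 12 genes listed for HEK293, 9 were detected on all arrays, among them KRT8, KRT18, VIM and CDH2, while PAX2 was detected on 0. Of the listed markers of other cell types, CD3E, CD14, HBB, CDH5, KRT5 and KRT14 were detected on 0 arrays. From the same lists LCP1, CD68, HBA1, VWF, COL1A1, COL3A1, LUM and ACTA2 were detected on all 12 arrays, MYH11 on 10 and PTPRC on 9. PECAM1, KDR, PDGFRB, DCN and DES were detected on 1 or 2.

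The sequences just upstream of the starts of ANXA1, ANXA2 and ANXA5 are shown because these are the members whose RPF1 Tet- arrays all lay below their RPF1 Tet+ arrays. The share of all probes with groups apart in this way was not counted, and nothing is read from the separation. Each is the 250 bases before the start in RefSeq, build GRCh38.p14, read along the gene's strand. Capitals mark matches, on either strand, to the TATA box TATAAA, the CCAAT box CCAAT, the GC box GGGCGG and the octamer ATGCAAAT, an element known to bind POU-domain proteins, the class RPF-1 belongs to.
ANXA1, chr9:73151615-73151864, plus strand: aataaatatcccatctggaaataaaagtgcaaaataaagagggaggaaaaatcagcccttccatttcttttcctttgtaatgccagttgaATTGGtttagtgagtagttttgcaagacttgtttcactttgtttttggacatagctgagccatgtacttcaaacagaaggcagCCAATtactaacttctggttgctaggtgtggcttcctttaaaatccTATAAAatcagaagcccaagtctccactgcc
ANXA2, chr15:60397987-60398236, minus strand: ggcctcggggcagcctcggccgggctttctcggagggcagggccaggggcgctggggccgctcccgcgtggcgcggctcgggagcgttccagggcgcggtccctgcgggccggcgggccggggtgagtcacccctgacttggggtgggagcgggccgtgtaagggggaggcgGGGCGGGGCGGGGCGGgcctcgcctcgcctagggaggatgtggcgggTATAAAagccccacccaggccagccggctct
ANXA5, chr4:121696981-121697230, minus strand: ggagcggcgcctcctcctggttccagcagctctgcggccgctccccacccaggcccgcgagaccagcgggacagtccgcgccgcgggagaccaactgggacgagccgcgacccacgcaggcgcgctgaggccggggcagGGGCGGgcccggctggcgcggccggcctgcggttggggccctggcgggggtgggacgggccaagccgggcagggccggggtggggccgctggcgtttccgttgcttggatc
ANXA1 had the lowest upstream G and C content of the 12 starts that RefSeq gave for the 8 genes. Its 250 bases held 38.4% G and C with 0 CpG dinucleotides, and 10.1% of 35116 RefSeq promoters had less G and C. ANXA2 held 78% with 28 CpG and ANXA5 held 78.8% with 31 CpG, against a median of 58% over all promoters. The starts other than that of ANXA1 had 50% to 78.8% G and C. A TATA box began 31 bases upstream of the start in both ANXA1 and ANXA2. A match at any place in the 250 bases, on either strand, was held by 10.7% of all promoters. The shares below for the other motifs count matches in the same way. ANXA1 had CCAAT matches beginning 160 and 77 bases upstream, the first of them on the opposite strand, and 32% of promoters held such a match. ANXA2 had 3 GC boxes, beginning 78, 73 and 68 bases upstream and overlapping each other, while ANXA5 had 1 at 111. A GC box was present in 42.6% of promoters and in the printed ANXA1 window in 0 copies. The octamer was in none of the 12 windows and in 1.63% of all promoters, which says only that these letters are not in those windows.

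ANXA1, read by 1 probe, was abundant in every group but RPF1 Tet-. Its level on the log2 scale was 11.49, 10.58 and 11.05 on the RPF1 Tet- arrays, against 14.32, 14.33 and 14.34 on the RPF1 Tet+ arrays. The Mock Tet- arrays gave 14.65, 14.38 and 14.59, against 14.55, 14.56 and 14.47 on the Mock Tet+ arrays. The RPF1 Tet- arrays lay below every other array, and the 2 Mock groups overlapped. In unprocessed intensity the mean was 2452 in RPF1 Tet- and 20044 in RPF1 Tet+. The log2 difference was -3.29 (SE 0.18, 95% interval -3.68 to -2.90), which is 9.78-fold lower in RPF1 Tet-. Of all 14752 probes tested, 2 had a lower difference. ANXA1 also spread most where it was lowest, with an SD of 0.46 in RPF1 Tet- and 0.01 in RPF1 Tet+. RPF1 Tet- array 1, the one on the second chip with all RPF1 Tet+ arrays, was the highest of its group. Within that chip the difference was -2.84. Chip and replicate cannot be told apart among the RPF1 Tet- arrays.

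**Figure D1:**
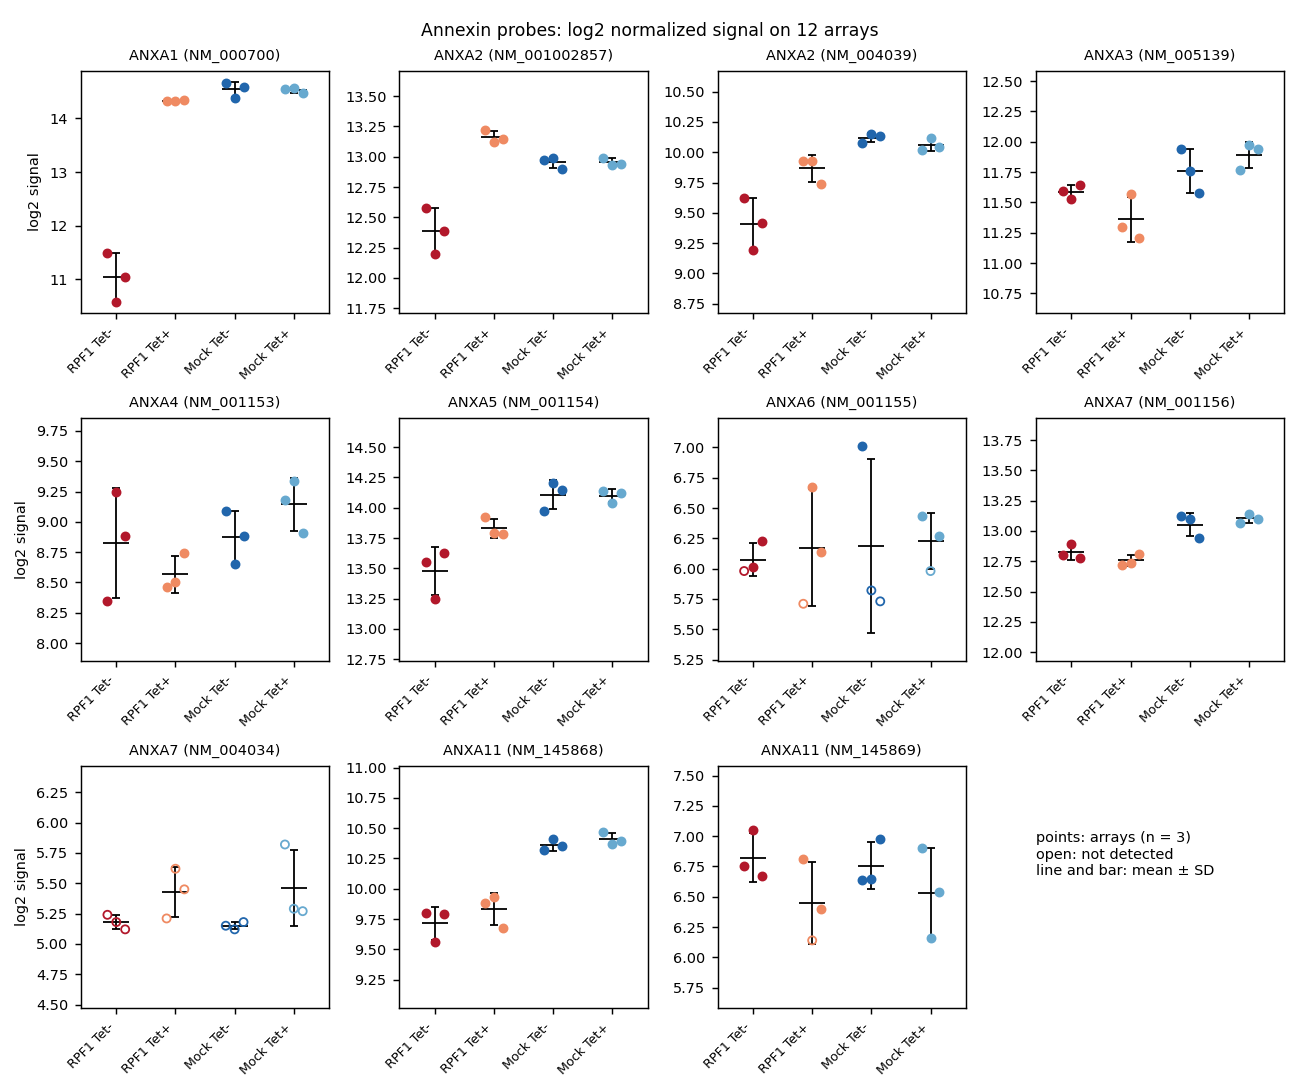
Log2 normalized signal (vertical axis, a separate range in each panel) of the 11 annexin probes in RPF1 Tet-, RPF1 Tet+, Mock Tet- and Mock Tet+. Points are arrays, open points were not detected, and lines with bars are the mean ± SD of 3 arrays; the RPF1 Tet- arrays of ANXA1 lie at 10.58 to 11.49 and all other arrays at 14.32 or above.

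ANXA2 and ANXA5 followed with smaller differences between RPF1 Tet- and RPF1 Tet+. ANXA2 has 2 probes, one for each of 2 transcript records, and near-identical processed copies of the gene (ANXA2P1, ANXA2P2 and ANXA2P3) make its signal uncertain, since a probe could also bind their transcripts. The probe for NM_001002857 gave 12.58, 12.20 and 12.39 in RPF1 Tet- and 13.22, 13.12 and 13.15 in RPF1 Tet+. Its RPF1 Tet- arrays lay below all others, with a log2 difference of -0.77 (SE 0.09), or 1.71-fold lower. The probe for NM_004039 gave 9.62, 9.19 and 9.42 in RPF1 Tet- and 9.93, 9.93 and 9.74 in RPF1 Tet+. Here too the groups did not overlap, and the log2 difference was -0.46 (SE 0.11), or 1.37-fold lower. Within the second chip these differences were -0.59 and -0.25, so the value of the NM_004039 probe there was about as large as the scatter of its RPF1 Tet+ arrays (9.74 to 9.93). ANXA5 gave 13.55, 13.25 and 13.63 in RPF1 Tet- and 13.92, 13.79 and 13.78 in RPF1 Tet+. The groups again did not overlap, with a log2 difference of -0.35 (SE 0.11), or 1.28-fold lower, and -0.28 within the second chip. For this comparison too, the share of all probes with groups apart was not counted. On the RPF1 Tet- arrays both ANXA2 probes were highest on array 1 and lowest on array 2, as ANXA1 was. The NM_145868 probe of ANXA11 had this order too (9.80, 9.56 and 9.79), though its RPF1 groups overlapped. How many of all probes had it was not counted.

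ANXA4, a phospholipid-binding annexin of epithelial cells, had the opposite order on those arrays, lowest on array 1 and highest on array 2. It gave 8.35, 9.25 and 8.88 in RPF1 Tet- and 8.46, 8.50 and 8.74 in RPF1 Tet+. The groups overlapped, and the log2 difference of 0.26 (SE 0.20) became -0.21 within the second chip, so no direction holds for it. ANXA3 gave 11.59, 11.53 and 11.64 in RPF1 Tet- and 11.30, 11.57 and 11.21 in RPF1 Tet+, which overlap, with a difference of 0.23 (SE 0.12). ANXA7 read by the NM_001156 probe gave 12.80, 12.89 and 12.78 in RPF1 Tet- and 12.72, 12.74 and 12.81 in RPF1 Tet+, a difference of 0.07 (95% interval -0.09 to 0.24). The intervals of both include 0, and that of ANXA7 is narrow. The 2 ANXA11 probes did not match in sign, at -0.11 for NM_145868 and 0.37 for NM_145869, each with overlapping groups. ANXA6, an annexin with a doubled core domain, differed by -0.10 with an interval of -0.79 to 0.58 that leaves the direction unknown. It was near background throughout, detected on 2 RPF1 Tet- arrays, 2 RPF1 Tet+ arrays, 1 Mock Tet- array and 2 Mock Tet+ arrays. The second ANXA7 probe, NM_004034, was detected on 0 of 12 arrays and was not tested.

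In the fit over all probes, the ANXA1 probe and both ANXA2 probes, 3 of 10, lay past the threshold used for all probes in RPF1 Tet- against RPF1 Tet+, as did 12.7% of all probes. Since this contrast chose the family, that count is no test of the annexins and nothing is read from it. The median difference of the 10 probes was -0.11 and that of all probes -0.01.

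RPF1 Tet- was also set against Mock Tet-, likewise without tetracycline but with no RPF-1 cDNA. ANXA1 was -3.50 (SE 0.18), or 11.3-fold lower. The ANXA2 probes were -0.56 for NM_001002857 and -0.71 for NM_004039, and ANXA5 was -0.63. ANXA11 read by NM_145868 was -0.64 and ANXA7 was -0.23. In each of these 6 probes the RPF1 Tet- arrays lay below all Mock Tet- arrays. The share of all probes with groups apart in this way was not counted. These 6 of 10 lay past the threshold used for all probes, as did 30.4% of all probes. ANXA3 (-0.17), ANXA4 (-0.05), ANXA6 (-0.11) and the NM_145869 probe of ANXA11 (0.07) had overlapping groups. These values use the same RPF1 Tet- arrays as the induction contrast and are a description as well. Nothing is read from the count past the threshold or from the separation of the groups. Within the second chip ANXA1 was -3.04, and ANXA4 was -0.52.

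**Figure D2:**
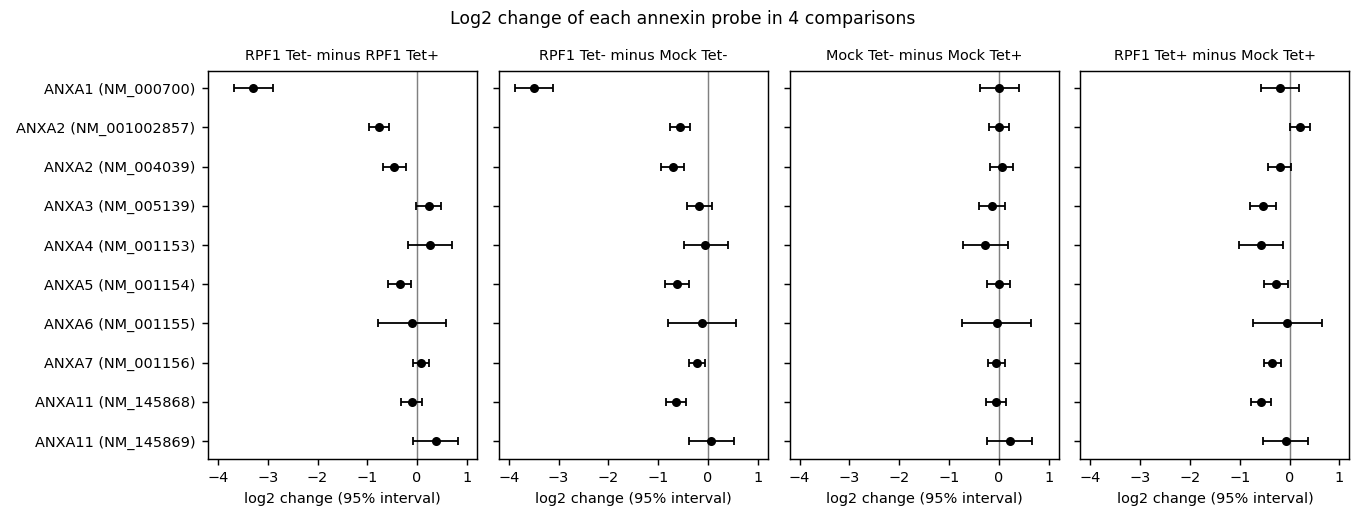
Log2 change (horizontal axis) of the 10 tested annexin probes in 4 comparisons, with points for the fitted change and bars for its 95% interval from limma (3 arrays per group). ANXA1 lies at -3.29 against RPF1 Tet+ and at -3.50 against Mock Tet-, while all 10 probes lie between -0.27 and 0.22 in Mock Tet- against Mock Tet+.

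The Mock line shows what taking tetracycline away does without the RPF-1 cDNA. In Mock Tet- against Mock Tet+, 0 of the 10 annexin probes passed the adjusted p of limma, and 0% of all probes did. At an unadjusted p under 0.05, 0 annexin probes and 376 of 14752 probes passed. The annexin values ran from -0.27 for ANXA4 to 0.22 for the NM_145869 probe of ANXA11, with a median of -0.02. ANXA1 differed by 0.01 with an interval of -0.38 to 0.40. The NM_001002857 probe of ANXA2 differed by 0.00, with an interval of -0.20 to 0.20. ANXA5 differed by 0.00 too, within -0.23 to 0.23. Each of the 10 tested probes had overlapping Mock groups. Subtracting the Mock difference from the RPF1 difference left -3.30 (SE 0.25) for ANXA1, -0.77 (SE 0.13) and -0.52 (SE 0.15) for the ANXA2 probes and -0.35 (SE 0.15) for ANXA5. Over all probes 4.87% passed in that difference of the Tet effects, which again uses the arrays that chose the family.

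The 2 lines also differed with tetracycline present. This comparison, RPF1 Tet+ against Mock Tet+, was tested, though it shares the RPF1 Tet+ arrays with the induction contrast and the Mock Tet+ arrays with the Mock contrast. ANXA3, ANXA7 and the NM_145868 probe of ANXA11 were lower in RPF1 Tet+, which makes 3 of 10 annexin probes passing, where 14.5% of all probes passed. ANXA11 read by NM_145868 gave 9.88, 9.93 and 9.68 in RPF1 Tet+, against 10.47, 10.37 and 10.39 in Mock Tet+. The groups were well apart, with a log2 difference of -0.58 (SE 0.09, adjusted p = 0.00299 in limma). ANXA3 gave 11.30, 11.57 and 11.21 in RPF1 Tet+, against 11.77, 11.97 and 11.94 in Mock Tet+, a difference of -0.53 (SE 0.12, adjusted p = 0.0113 in limma). ANXA7 gave 12.72, 12.74 and 12.81 in RPF1 Tet+, against 13.07, 13.14 and 13.10 in Mock Tet+, a difference of -0.35 (SE 0.08, adjusted p = 0.0118 in limma). In all 3 the groups did not overlap, though the share of all probes with groups apart was not counted. With chip as a random block the 3 calls held (adjusted p = 0.00339, 0.0126 and 0.0135 in limma). The correlation within chips was 0.0331 there, an estimate from 3 chips. A fixed block, meant elsewhere by chip as a block, rests on 1 Mock Tet+ array in this comparison. With chip as a block the sizes hardly moved, at -0.55, -0.58 and -0.35, but the adjusted p in limma became 0.0755, 0.119 and 0.154, so the calls ended. On the second chip alone, with 1 Mock Tet+ array, it was 0.0959, 0.153 and 0.178.

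The other annexins did not pass in RPF1 Tet+ against Mock Tet+. ANXA4 was -0.58 (adjusted p = 0.0837 in limma) and ANXA5 was -0.27 (adjusted p = 0.12 in limma), both with groups that did not overlap. Leaving out RPF1 Tet- array 2, which enters only the shared spread, brought both past the threshold and the count of annexin probes to 5. ANXA4 passed also without RPF1 Tet- array 1. ANXA1 was -0.20 (adjusted p = 0.509 in limma), with every RPF1 Tet+ array below every Mock Tet+ array. The ANXA2 probes went in opposite directions, 0.21 for NM_001002857 (adjusted p = 0.153 in limma) and -0.20 for NM_004039 (adjusted p = 0.249 in limma). The NM_145869 probe of ANXA11 was -0.08 (adjusted p = 0.844 in limma), and ANXA6 was -0.05 (adjusted p = 0.945 in limma), both with overlapping groups. Over the family 9 of the 10 values were below 0, with a median of -0.23, against a median of 0.00 for all probes. ANXA11 (NM_145868) and ANXA7 were lower in both RPF1 groups than in Mock, and differed little between RPF1 Tet- and RPF1 Tet+, while ANXA1 stood near the Mock level in RPF1 Tet+.

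By likeness, the genes whose levels ran closest to ANXA1 over the 12 arrays were BMP5, NDUFV3, DNAJC12, EPHA3, EDIL3 and TFPI. The measure was the root mean square difference of log2 levels after centring each gene on its own mean, over 11816 candidate genes. It was 0.21 for BMP5, a secreted growth factor of the BMP family, where ANXA1 itself moved by 1.50 about its mean. BMP5 was detected on 0 RPF1 Tet- arrays and on 3 RPF1 Tet+ arrays, at least 8.9-fold lower in RPF1 Tet-. That bound sets the mean of RPF1 Tet+ against the lowest detected signal of each RPF1 Tet- array. The measure was 0.30 for NDUFV3, a subunit of respiratory complex I, and 0.33 for DNAJC12, a co-chaperone. It was 0.36 for EPHA3, an ephrin receptor kinase, 0.40 for EDIL3, a secreted integrin ligand, and 0.41 for TFPI, which inhibits tissue factor in coagulation. NDUFV3 and EDIL3 were near background in RPF1 Tet-, at means of 6.05 and 6.10 with 2 arrays detected each, where ANXA1 averaged 11.04. DNAJC12 averaged 9.29 ± 0.16 in RPF1 Tet- and 11.86 ± 0.10 in RPF1 Tet+, with 12.12 ± 0.02 in Mock Tet- and 12.09 ± 0.04 in Mock Tet+ (SD, n = 3). Like ANXA1, all 6 stood lowest in RPF1 Tet-, as the choice by likeness fixes. The nearest to the mirror image of ANXA1 were FOXA2 (0.38), a forkhead transcription factor, CITED1 (0.39), a transcriptional co-regulator, and TKTL1 (0.41), a transketolase relative. TKTL1 was detected on 1 RPF1 Tet+ array and on 0 arrays of either Mock group, so its level there was near background. CITED1 averaged 11.79 ± 0.23 in RPF1 Tet- and 8.15 ± 0.12 in RPF1 Tet+, with 8.63 ± 0.02 in Mock Tet- and 8.64 ± 0.05 in Mock Tet+ (SD, n = 3).

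**Figure D3:**
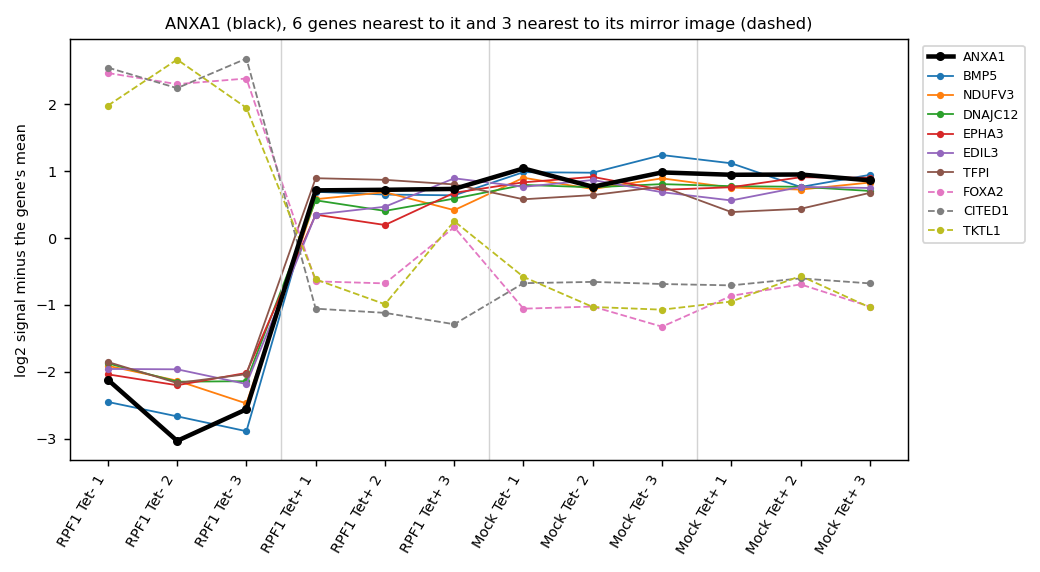
Log2 signal minus each gene's mean over the 12 arrays (vertical axis) on every array (horizontal axis, RPF1 Tet- first), for ANXA1 in black, the 6 genes nearest to it as solid lines and the 3 nearest to its mirror image as dashed lines. ANXA1, BMP5 and the other solid lines drop on the 3 RPF1 Tet- arrays, where the dashed lines stand high.

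Among the proteins that annexins bind, the share of transcripts passing was close to that of all probes. Of 14 listed binding proteins and receptors, 8 had a tested probe, and 1 was higher and 0 were lower in RPF1 Tet- against RPF1 Tet+, a share of 12.5% beside 12.7% of all probes. The median of the 8 was -0.02, and that of all probes -0.01. S100A10, the partner of ANXA2, gave 15.21, 15.45 and 15.32 in RPF1 Tet- and 15.47, 15.47 and 15.44 in RPF1 Tet+, a difference of -0.14 with an interval of -0.36 to 0.09. The groups overlapped. S100A11, a calcium-binding partner of ANXA1, was higher at 0.42 (SE 0.11, adjusted p = 0.023 in limma), with 12.08, 12.31 and 12.08 in RPF1 Tet- against 11.71, 11.74 and 11.76 in RPF1 Tet+. That call ended with chip as a block (0.34, adjusted p = 0.28 in limma), and without RPF1 Tet- array 2 (0.34), RPF1 Tet+ array 1 (0.41) or RPF1 Tet+ array 2 (0.42). PDCD6, the calcium sensor that binds ANXA7 and ANXA11, differed by -0.01 within -0.19 to 0.16. SRI, which encodes sorcin, differed by -0.25 within -0.55 to 0.05. AHNAK, a large scaffold bound by the ANXA2 and S100A10 complex, differed by 0.18 within -0.10 to 0.46. S100A6 and the receptors FPR2 and FPR3 were too dim to test. The receptor FPR1 had a tested probe and did not pass in this comparison.

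In the phospholipase A2 and eicosanoid enzymes, the pathway ANXA1 is known to restrain, 12 of 19 genes were tested and 1 was higher and 1 lower in RPF1 Tet- against RPF1 Tet+, a share of 16.7% beside 12.7% of all probes, with a list median of 0.14 beside -0.01. PLA2G4A, the cytosolic phospholipase A2 that releases arachidonic acid, gave 8.81, 8.84 and 8.36 in RPF1 Tet- and 9.71, 9.60 and 9.99 in RPF1 Tet+. The groups were apart, with a difference of -1.09 (SE 0.17, adjusted p = 0.00127 in limma). PLA2G4C, a related calcium-independent enzyme, was higher by 0.76 (SE 0.18, adjusted p = 0.0176 in limma). With chip as a block these were -0.96 (adjusted p = 0.0871 in limma) and 0.84 (adjusted p = 0.16 in limma). The call of PLA2G4C also ended without RPF1 Tet+ array 1 (0.74), RPF1 Tet+ array 3 (0.67), RPF1 Tet- array 1 (0.71) or RPF1 Tet- array 3 (0.69). PTGES, a prostaglandin E synthase, was lower in RPF1 Tet+ against Mock Tet+ at -0.45 (SE 0.10, adjusted p = 0.0135 in limma), a call that ended without Mock Tet+ array 3 (-0.43, adjusted p = 0.0504 in limma).

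Of the 36 membrane repair and phospholipid-binding genes, 29 were tested, and 1 was higher and 3 were lower in RPF1 Tet- against RPF1 Tet+, a share of 13.8% beside 12.7% of all probes, with a list median of 0.00 beside -0.01. CAV1 and CAV2, which encode caveolar coat proteins, were both lower. CAV2 gave 10.11, 9.98 and 10.04 in RPF1 Tet- and 11.15, 11.36 and 11.28 in RPF1 Tet+, a difference of -1.22 (SE 0.12, adjusted p = 5.65e-05 in limma). It was the 1 listed pathway gene still past the threshold with chip as a block, at -1.16. CAV1 gave 8.93, 8.35 and 8.78 in RPF1 Tet- and 9.56, 9.54 and 9.45 in RPF1 Tet+, a difference of -0.83 (SE 0.13, adjusted p = 0.0014 in limma). SRI, which did not pass, was highest on array 1 and lowest on array 2 of RPF1 Tet- (10.62, 10.03 and 10.39). CAV1 had this order too, as ANXA1 did, and array 1 was on another chip than the others. With chip as a block it was -0.59 (adjusted p = 0.093 in limma). SYT1, a calcium sensor of vesicle fusion, was lower at -0.58 (SE 0.16, adjusted p = 0.0362 in limma), a call that ended when RPF1 Tet- array 1 or 3, any 1 RPF1 Tet+ array, or Mock Tet+ array 3 was left out (-0.62 to -0.53). EHD1, a membrane-remodelling ATPase of endosomal recycling, was higher at 0.54 (SE 0.08, adjusted p = 0.001 in limma). In RPF1 Tet+ against Mock Tet+, MYOF, a ferlin of membrane repair, was lower at -0.80 (SE 0.16, adjusted p = 0.00774 in limma). CPNE1, a copine, was higher there at 0.59 (SE 0.10, adjusted p = 0.00422 in limma). EHD1 was lower there at -0.38 (adjusted p = 0.00988 in limma), and in RPF1 Tet- against Mock Tet- it differed by 0.07 (adjusted p = 0.547 in limma).

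**Figure D4:**
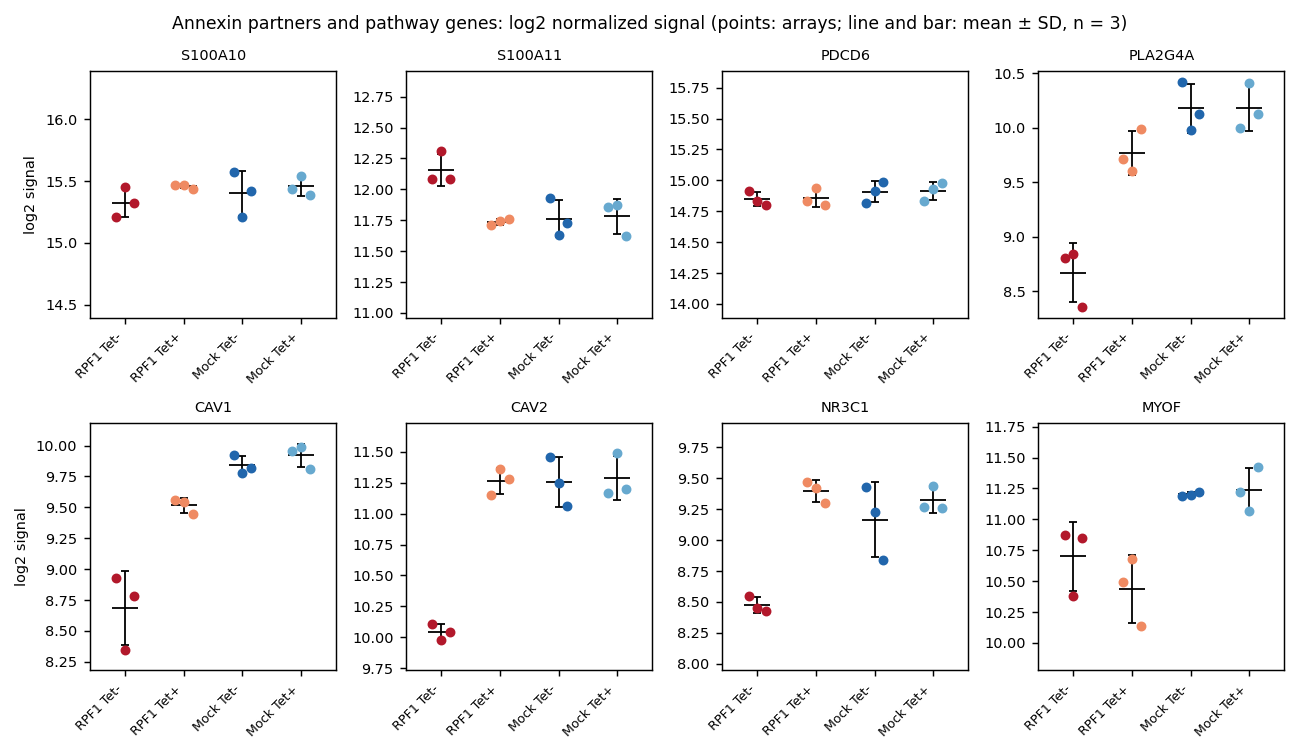
Log2 normalized signal (vertical axis, a separate range in each panel) of 8 annexin partners and pathway genes in RPF1 Tet-, RPF1 Tet+, Mock Tet- and Mock Tet+, with points for arrays and lines with bars for the mean ± SD of 3 arrays. PLA2G4A, CAV1, CAV2 and NR3C1 are lowest in RPF1 Tet-, S100A11 is highest there, and S100A10 and PDCD6 overlap in all groups.

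All 12 genes listed for the glucocorticoid receptor, the inducer ANXA1 is known to respond to, were tested, and 1 was higher and 1 lower in RPF1 Tet- against RPF1 Tet+, a share of 16.7% beside 12.7% of all probes, with a list median of 0.05 beside -0.01. NR3C1, the receptor itself, gave 8.55, 8.45 and 8.43 in RPF1 Tet- and 9.47, 9.42 and 9.30 in RPF1 Tet+. The groups were apart, at -0.92 (SE 0.13, adjusted p = 0.000835 in limma), and -0.84 with chip as a block (adjusted p = 0.0577 in limma). CEBPB, a leucine zipper transcription factor, was higher at 0.29 (SE 0.08, adjusted p = 0.0367 in limma), a call that ended when RPF1 Tet- array 1 or 3, RPF1 Tet+ array 1 or 3, Mock Tet- array 2 or 3, or Mock Tet+ array 1 or 3 was left out (0.22 to 0.31). TSC22D3, a glucocorticoid-induced zipper protein, was 0.52 there without passing (adjusted p = 0.153 in limma). In RPF1 Tet+ against Mock Tet+, 3 of these genes were higher and 1 lower, a share of 33.3% beside 14.5% of all probes. Among them were ZBTB16 at 0.61 (adjusted p = 0.0369 in limma), and PER1, which was lower. PER1 was detected on 0 RPF1 Tet+ arrays and on 2 of the 3 Mock Tet+ arrays, so its level there is only a bound, at least 1.04-fold lower in RPF1 Tet+ (adjusted p = 0.0483 in limma). The ZBTB16 call ended without RPF1 Tet- array 3, RPF1 Tet+ array 1 or 3, Mock Tet- array 3, or Mock Tet+ array 1 or 3 (0.43 to 0.66). The PER1 call ended without any 1 array other than Mock Tet- arrays 1 and 2. With chip as a block, the call of these lists that held in RPF1 Tet- against RPF1 Tet+ was CAV2. In RPF1 Tet+ against Mock Tet+ it was ZBTB16. These comparisons then rest on 1 RPF1 Tet- array and 1 Mock Tet+ array, so nothing is read from the calls holding. That Mock Tet+ array, array 3, gave the lowest ZBTB16 level of its group, 7.54. Without it the ZBTB16 difference fell to 0.43. None of the lists had a gene passing in Mock Tet- against Mock Tet+. Of 5 other annexins listed, 2 were on the arrays, ANXA10 and ANXA13, and both were too dim to test.

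Sums of some markers of other cell types differed in RPF1 Tet-, and their part in the annexin values was not tested. The sums were taken on the authors' intensity values, which lie close to a normalization without background subtraction, so undetected genes add background. The summed linear signal of 5 fibroblast genes was 1762 to 2080 in RPF1 Tet-, against 2811 to 3975 in RPF1 Tet+ and 2694 to 3021 in the Mock groups. That of 3 smooth muscle genes was 4553 to 7328 in RPF1 Tet- and 2961 to 3939 in RPF1 Tet+. It was 2909 to 3924 in Mock Tet- and 3076 to 4582 in Mock Tet+, which overlaps RPF1 Tet-. Of these 3 genes ACTA2 was far the brightest, at 11.20 to 12.71 on the log2 scale, with MYH11 and DES at most 6.76. The sum of 2 red blood cell genes was 960 to 1183 in RPF1 Tet- and 437 to 629 in RPF1 Tet+. In the Mock groups it was 710 to 791, with HBB detected on 0 arrays and HBA1 on 12. The sum of 5 white blood cell genes was 2097 to 2262 in RPF1 Tet- and 1715 to 1719 in RPF1 Tet+. In the Mock groups it was 1431 to 1540, with CD3E and CD14 detected on 0 arrays and LCP1 and CD68 on 12. That of 4 endothelial genes was 1051 to 1105 in RPF1 Tet- and 1098 to 1227 in RPF1 Tet+, which overlap. That of 2 keratinocyte genes was 310 to 334 in RPF1 Tet- and 309 to 322 in RPF1 Tet+, also overlapping. Both of these genes were detected on 0 arrays, so their sum is background. In bulk RNA, fewer cells with a transcript and less of it per cell cannot be told apart.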

How the data were processed

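Total RNA of HEK293 cells was read on 12 Illumina bead arrays. The submitters' processing notes name BeadStudio without a version. The authors deposited an unprocessed intensity per probe and array with its detection p-value, per the file headers, and a second table of intensity values. That table differed from a quantile normalization without background subtraction by a median of 0.00626% and at most 2.11%.

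From the unprocessed signals, limma 3.58.1 in R 4.3.3 corrected background (normal plus exponential model, background inferred from detection p-values, offset 16), quantile normalized and took log2. A probe entered the fit where 3 or more arrays detected it (p under 0.05), which kept 14752 of 22184, with 1 coefficient per group and 8 residual degrees of freedom. P-values were adjusted by Benjamini-Hochberg over these probes and called under 0.05; the procedure was tested on simulated data. Gene lists used 1 probe per gene. Named from each list were called genes with the largest changes and 6 annexin partners. The members and lists were chosen with earlier results of these data known. Alternatives covered background, scaling, filter, probes, chip, replicate block and single omissions. The number of arrays limits the precision. Replicate numbers did not pair the arrays.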

Additional observations from a re-analysis of the deposited data

Results flagged for a closer look

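For 7 results the effect of removing tetracycline differed between the RPF1 line and the Mock line. They are the annexin probes and named list genes past the threshold used for all probes in the difference of the Tet effects. Of all probes, 4.87% lay past it. The list genes had been named for their calls, in comparisons that share arrays with this difference. For them the test of the difference itself is given. For ANXA1 the difference of the Tet effects was -3.30 and for the NM_001002857 probe of ANXA2 it was -0.77. Both use the contrast that chose the family, so their place among the 7 is no test and nothing is read from it. PLA2G4A differed by -1.09 (adjusted p = 0.0232 in limma), with -1.09 in the RPF1 line and 0.00 in the Mock line. CAV2 differed by -1.19 (adjusted p = 0.00194 in limma) and CAV1 by -0.75 (adjusted p = 0.0376 in limma). NR3C1 differed by -0.77 (adjusted p = 0.0384 in limma), and EHD1 by 0.44 (adjusted p = 0.0442 in limma), with 0.54 in the RPF1 line and 0.09 in the Mock line.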

How the results depend on the processing

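With chip as a fixed block and on the second chip alone, ANXA1 in RPF1 Tet- against RPF1 Tet+ moved to -2.84 under both, and the annexin probes passing in RPF1 Tet+ against Mock Tet+ went to 0 under both. The pathway list genes passing went to 1 under both in RPF1 Tet- against RPF1 Tet+, and to 1 (block) and 0 (second chip) in RPF1 Tet+ against Mock Tet+, where 9 passed in each comparison without it. Over all probes the block left 435 passing in RPF1 Tet- against RPF1 Tet+, 293 in RPF1 Tet+ against Mock Tet+ and 1317 between the lines without tetracycline, and the second chip alone 370, 115 and 1174. Those fits rest on 1 RPF1 Tet- array and 1 Mock Tet+ array. With chip as a random block, 1770, 2052 and 4308 probes passed in the same 3 comparisons. The pathway list genes passing were then 9 in RPF1 Tet- against RPF1 Tet+ and 8 in RPF1 Tet+ against Mock Tet+. In the latter 3 annexin probes passed. Leaving out single arrays, the annexin probes passing in RPF1 Tet+ against Mock Tet+ ranged from 3 to 5, with 5 without RPF1 Tet- array 2. The pathway genes passing ranged from 5 to 10 in RPF1 Tet- against RPF1 Tet+, with 5 without RPF1 Tet+ array 1, and from 4 to 12 in RPF1 Tet+ against Mock Tet+, with 4 without Mock Tet+ array 3 and 5 without Mock Tet+ array 1. All probes passing fell to 1142 without RPF1 Tet+ array 1 and 1199 without RPF1 Tet- array 3 in RPF1 Tet- against RPF1 Tet+. In RPF1 Tet+ against Mock Tet+ they fell to 1129, 1195, 1391 and 1417 without Mock Tet+ array 1, Mock Tet+ array 3, RPF1 Tet+ array 1 and RPF1 Tet+ array 3. PER1 lost its call under most omissions and under 5 settings of background, scaling or filter, and CEBPB lost its call with median scaling. With the authors' processed values ANXA4 passed in RPF1 Tet+ against Mock Tet+ (-0.44, adjusted p = 0.0466 in limma).

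The replicate numbers gave correlations of -0.392 to 0.24 between same-numbered arrays, so they do not pair the arrays. With the replicate number as a block, 1449, 1546 and 3910 probes passed in the same 3 comparisons, 0 annexin probes in Mock Tet- against Mock Tet+ and 3 in RPF1 Tet+ against Mock Tet+. ANXA1 stayed at -3.29, and CEBPB, ZBTB16 and PER1 lost their calls. In Mock Tet- against Mock Tet+, 0 probes passed under any of the 11 alternatives run on all probes.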
